A study of Mus musculus with 2 samples.

Results

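The genes of DNA replication and repair were taken as those whose symbol on the array's annotation carries the name of a replication, repair or checkpoint factor (MCM, ORC, GINS, the DNA polymerases, RFC, RPA, MSH, RAD, XRCC, ERCC, FANC, PARP and similar families), a rule on symbols that names no level. The rule found 102 genes, read by 109 probes, among 11484 genes on 13989 probes. Of these, 38 were assigned to replication, 53 to a repair or checkpoint route and 11 to neither, 6 of them further members of the PARP family. Small-molecule-generated stem cells at passage 5, grown in ES medium, were compared with the parental cells at passage 1, grown in FBS medium. Both were labelled as embryo stage and strain C57/ICR, and RNA was read on a 1-colour oligonucleotide array. The series title names a small molecule as the means of generation without identifying it, and passage and medium cannot be told apart from it. The design text names 3 replicates per sample, but 1 column of normalised intensities per sample was analysed here. All 13989 probes of both columns lie at multiples of 1/18 within 0.001, so a column may be a mean over arrays, which was not settled, and an intensity below is that of a column. With 1 column a group, no difference below has a replicate error or a test.

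Before each S phase, origins of replication are licensed when ORC, CDC6 and CDT1 load the ring-shaped MCM2 to MCM7 helicase. CDC45, GINS and MCM10 then turn the helicase on, and polymerases alpha, delta and epsilon copy the strands behind it, tethered by the PCNA clamp that RFC loads. Mouse embryonic stem cells cycle rapidly with a short G1 phase and spend much of their time in S phase, and they are known for efficient homologous recombination. Mismatch, base excision and nucleotide excision repair mend single-strand lesions, whereas homologous recombination and end joining mend double-strand breaks, and the ATM and ATR kinases signal the damage.

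Intensities are given for each gene as the mean of its probes on a log scale. A value under the 25th percentile of its column (93.4 in the stem cells and 93.8 in the parental cells) was called under the floor, a gene with both values below it counts as dim and gets no fold, and where 1 value is below it the fold is a lower bound. Medians of the columns were 305 in the stem cells and 304 in the parental cells, and the brightest member probe, one of Msh6 at 35555, was below the scanner's ceiling of 65535. Marker lists were chosen with earlier results of these data known, so they are no independent check on cell identity. Intensities of the 8 markers listed for pluripotent cells summed to 106303 in the stem cells and 726 in the parental cells. Of these 8 markers 7 were 2-fold or more higher in the stem cells. Nanog was the exception, at 94.7 in the stem cells and 77.7, under the floor, in the parental cells. All 5 measured mesenchymal markers were lower, summing to 769 in the stem cells and 138645 in the parental cells. Of 5 measured macrophage markers 3 were lower and 1 was higher in the stem cells, with sums of 13024 in the stem cells, 12204 of it from Laptm5, and 7331 in the parental cells. None of these markers was at 0, and their part in the differences below was not tested. In such bulk samples, fewer cells of a type and less RNA per cell cannot be told apart.

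Replication genes were mostly higher in the small-molecule-generated stem cells, and repair genes were so in part. Of the 102 members, 97 were above the floor in at least 1 sample, and 39 of them (40.2%) were at least 2-fold higher in the stem cells, beside 20.5% of all 9766 genes above the floor. Another 10 (10.3%) were lower by 2-fold or more, beside 20.8% of all genes, and 48 differed by less than 2-fold. The dim members were Cdc6, Msh5, Fancm, Poli and Poln. Among replication genes 21 of 37 above the floor (56.8%) were higher and 4 were lower, with a median log2 difference of 1.14, against 0.10 over all genes. Of the 49 repair and checkpoint genes above the floor 18 (36.7%) were higher and 2 were lower, with a median of 0.64. Positive differences of any size made up 83.8% of the replication genes, 69.4% of the repair genes and 54.2% of all genes above the floor. At 4-fold or more, 12 members were higher and 3 were lower, beside 6.32% and 9.15% of all genes.

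**Figure D1:**
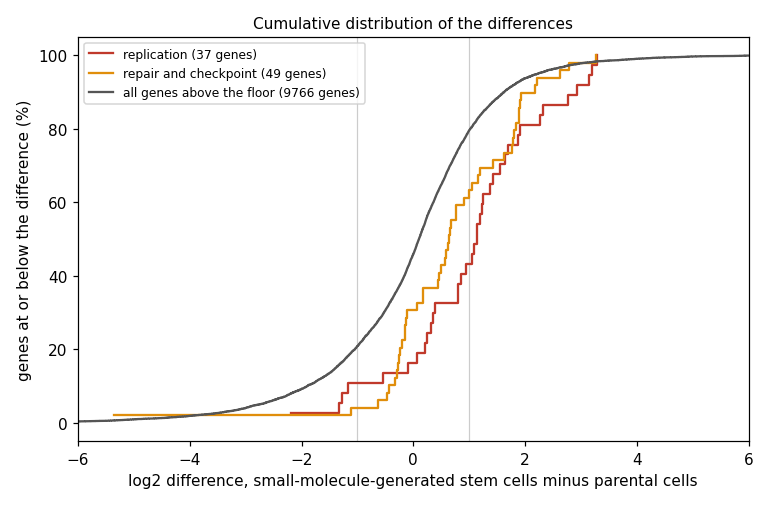
Cumulative share of genes (vertical axis, percent) at or below each log2 difference between the small-molecule-generated stem cells and the parental cells (horizontal axis), for 37 replication genes, 49 repair and checkpoint genes and all 9766 genes above the floor. Grey lines mark 2-fold. The replication curve lies furthest to the right over most of its middle, with its median at 1.14, and the repair curve, with its median at 0.64, lies to the right of the curve of all genes at its median but passes the replication curve near the 75th percentile (1.77 for repair and 1.70 for replication).

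The precision of a single gene is limited by its probe. In the 601 genes read by exactly 2 probes over the floor, single-probe log2 differences scattered around their gene's mean with an SD of 1.05, equal to 2.08-fold. This is the spread between probes on the same 2 samples and not between cultures. The 2-fold rule lies under 1 such SD. Past 2 such SD, 12 members were higher and 3 lower, and the share of all genes past this cut was not counted. At the nearby 4-fold rule the member counts were the same, beside 6.32% of all genes higher and 9.15% lower. Of the members 95 were read by 1 probe and 7 by 2, and the 2 probes had the same sign in 4 of those 7. Orc2, Gins1 and Fancc were the 3 with probes of opposite sign. With differences centred on mean intensity by lowess, 5 of the 49 members past 2-fold dropped under it, namely Mcm3, Mcm7, Cdc45, Timeless and Apex1.

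Of the 11 genes above the floor that license origins, 7 were 2-fold or more higher in the stem cells and 1, Orc4, was lower. Among all genes 20.5% were higher and 20.8% lower. Orc1, the largest subunit of the origin recognition complex and the one whose level varies through the cell cycle, was at 1403 in the stem cells and 152 in the parental cells, a 9.22-fold difference. Cdt1, the loader that brings the helicase to ORC, stood at 9587 in the stem cells and 2555 in the parental cells, 3.75-fold higher. These were the 2 largest differences of the step. All 6 subunits of the MCM2 to MCM7 helicase had positive differences, and 4 of them passed 2-fold. Mcm6 was at 13301 in the stem cells and 3618 in the parental cells (3.68-fold). Mcm5 was at 10948 in the stem cells and 3504 in the parental cells (3.12-fold). Mcm3 and Mcm7 were 2.21-fold and 2.20-fold higher, close to the size rule. Mcm2 stayed under it at 2219 in the stem cells and 1149.5 in the parental cells (1.93-fold). So did Mcm4 at 6725 in the stem cells and 5391 in the parental cells (1.25-fold). Log2 differences over the ring ran from 0.32 to 1.88.

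Within ORC the values of the subunits went in both directions, each but Orc2 read by 1 probe. Orc5 was 2.28-fold higher, at 2814 in the stem cells and 1234 in the parental cells, whereas Orc4 was 2.43-fold lower, at 150.2 in the stem cells and 364 in the parental cells. Orc2 averaged 237 in the stem cells and 225 in the parental cells, but its probes pointed apart, one at a log2 difference of 0.53 and the other at -0.38. Cdc6, the ATPase that works with ORC and CDT1, was dim, at 58.2 in the stem cells and 45.9 in the parental cells. Over the licensing step 7 of 11 genes above the floor were higher and 1 was lower, beside 20.5% and 20.8% of all genes.

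Promoter sequences were examined because transcription of many licensing genes is known to depend on E2F factors, which act at the G1 to S transition. RefSeq windows (build GRCm38.p6) of 250 bases before to 50 after the start were found for 81 members and searched on both strands for 4 E2F-like forms, TTTCGCGC, TTTGGCGC, TTTCCCGC and TTTGCCGC. Some of these overlap on opposite strands. Any form was present in 11 of 31 replication genes (35.5%), 4 of 43 repair genes (9.3%) and 4.29% of all 9166 measured genes with a window. By response, the forms were in 7 of 19 replication genes that were 2-fold or more higher, in 3 of 7 under 2-fold, in none of the 4 that were lower and in the dim Cdc6. Orc1 is shown because it had the largest difference among replication genes with a form before the start (chr4:108579204-108579453, plus strand), and Pold4, a polymerase delta subunit, because it was the lowest replication gene (chr19:4231643-4231892, plus strand). Each run is the 250 bases up to the start, and capitals mark an E2F form or the CCAAT box (CCAAT or its complement ATTGG).
Orc1: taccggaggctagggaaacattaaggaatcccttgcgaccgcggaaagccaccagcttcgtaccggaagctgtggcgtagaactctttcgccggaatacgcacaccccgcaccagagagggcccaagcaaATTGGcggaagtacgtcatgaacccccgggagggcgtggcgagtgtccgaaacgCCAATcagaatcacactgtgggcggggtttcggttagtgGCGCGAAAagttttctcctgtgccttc
Pold4: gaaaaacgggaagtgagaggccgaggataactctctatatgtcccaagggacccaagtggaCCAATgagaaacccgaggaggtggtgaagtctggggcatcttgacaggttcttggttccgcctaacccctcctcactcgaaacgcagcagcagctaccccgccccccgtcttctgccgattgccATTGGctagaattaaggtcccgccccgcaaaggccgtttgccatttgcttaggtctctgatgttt
Orc1 carries the complement of TTTCGCGC beginning 27 bases before the start and 2 CCAAT boxes upstream of it. Pold4 has 2 CCAAT boxes and no E2F form in this window.

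Short stretches around a form, in capitals, are given for the other 6 replication genes that were higher and carried one. Pole2, which differed by less than 2-fold, and the repair genes Msh6 and Rad51c are set beside them. All run in the direction of transcription and were read at chr7:44548766-44548786 (Pold1, minus strand), chr8:122568037-122568064 (Cdt1, plus), chr1:128359798-128359825 (Mcm6, minus), chr8:75109346-75109373 (Mcm5, plus), chr1:20820276-20820303 (Mcm3, minus), chr5:138171850-138171877 (Mcm7, minus), chr12:69228163-69228190 (Pole2, minus), chr17:87975055-87975082 (Msh6, plus) and chr11:87404478-87404505 (Rad51c, minus) of GRCm38.p6.
Pold1: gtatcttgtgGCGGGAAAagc
Cdt1: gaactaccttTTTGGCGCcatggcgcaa
Mcm6: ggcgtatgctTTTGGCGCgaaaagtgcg
Mcm5: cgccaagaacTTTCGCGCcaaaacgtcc
Mcm3: aacttccgtgGCGGGAAAacttgggaag
Mcm7: ggtgacgacgTTTCGCGCcaatttcggt
Pole2: gtcggcggtgGCGCCAAAtcgcgaacat
Msh6: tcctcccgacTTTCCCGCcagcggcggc
Rad51c: tttccagcgcTTTCGCGCctcttgctct
In Mcm6 and Mcm5 a further form on the opposite strand begins 4 bases into the capitals, so that TTTGGCGC and TTTCGCGC overlap there. A match is a description of the letters and not evidence of binding.

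Of the 8 genes that activate the helicase and guard the fork, 4 were at least 2-fold higher in the stem cells and none was lower by that amount. The shares of all genes were 20.5% and 20.8%. Mcm10, needed to start unwinding, was at 16891 in the stem cells and 1916 in the parental cells, 8.81-fold higher and the largest difference of this step. Cdc45, the helicase cofactor, was at 2239.9 in the stem cells and 1080 in the parental cells (2.07-fold). The fork protection partners were higher by like amounts. Timeless was at 1409.6 in the stem cells and 666 in the parental cells (2.12-fold). Tipin was at 1887 in the stem cells and 792 in the parental cells (2.38-fold). The 4 GINS subunits, which join CDC45 and the MCM ring, all stayed under 2-fold. Gins4 was 1.74-fold higher (4861 in the stem cells and 2793 in the parental cells) and Gins2 was 1.46-fold lower (1103 in the stem cells and 1611 in the parental cells). Gins1 rested on 2 probes that disagreed, at log2 differences of 1.53 and -0.75.

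Of the 8 measured subunits of the replicative polymerases 5 were higher and 1 was lower, beside 20.5% and 20.8% of all genes. Pold1, the catalytic subunit of polymerase delta, was at 3106 in the stem cells and 316 in the parental cells, 9.82-fold higher and the largest positive difference among members with both values over the floor. Its small accessory subunit gene Pold4 went the opposite way, at 206 in the stem cells and 941 in the parental cells, 4.58-fold lower. Pold2 was 2.34-fold higher (5062 in the stem cells and 2163 in the parental cells). Polymerase epsilon subunits had unlike values as well, each from 1 probe. Pole, the catalytic subunit, was at 2399 in the stem cells and 498 in the parental cells (4.82-fold), and the histone-fold subunit Pole3 was 3.25-fold higher (2049 in the stem cells and 631 in the parental cells). Its histone-fold partner Pole4 was at 744 in the stem cells and 799 in the parental cells, and Pole2 was at 1334 in the stem cells and 1051 in the parental cells, both under 2-fold. Pola2, the B subunit of the polymerase alpha and primase complex, was at 3459 in the stem cells and 1292 in the parental cells (2.68-fold).

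Around the sliding clamp, 2 of the 3 measured clamp loader subunits were higher by over 2-fold, beside 20.5% of all genes. Rfc5 was at 5882 in the stem cells and 859.6 in the parental cells (6.84-fold) and Rfc4 was at 6455 in the stem cells and 2206 in the parental cells (2.93-fold). Rfc2 was 1.74-fold higher (8083 in the stem cells and 4655 in the parental cells). RPA, the trimer that coats single-stranded DNA, showed subunits in opposite directions. Rpa1, the large subunit, was at 26632 in the stem cells and 14712 in the parental cells (1.81-fold higher). Rpa3, the small one, was at 311 in the stem cells and 785 in the parental cells (2.52-fold lower). Each of these subunits was read by 1 probe, so uneven values within the clamp loader or RPA cannot be told apart from the spread between probes. Fen1, the nuclease that trims Okazaki fragments, was at 3760.2 in the stem cells and 3168 in the parental cells, 1.19-fold higher.

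Both measured subunits of chromatin assembly factor 1, which deposits histones behind the fork, were higher, beside 20.5% of all genes. Chaf1a was at 4844 in the stem cells and 969 in the parental cells (5.00-fold), beside 7.62-fold for its partner Chaf1b. The topoisomerases divided. Top3b was 2.58-fold higher, at 9207 in the stem cells and 3571 in the parental cells, and Top1, which relaxes supercoils ahead of the fork, was 2.25-fold lower, at 138 in the stem cells and 311.5 in the parental cells. The 4 lower replication genes were therefore Pold4, Rpa3, Orc4 and Top1, each read by 1 probe.

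**Figure D2:**
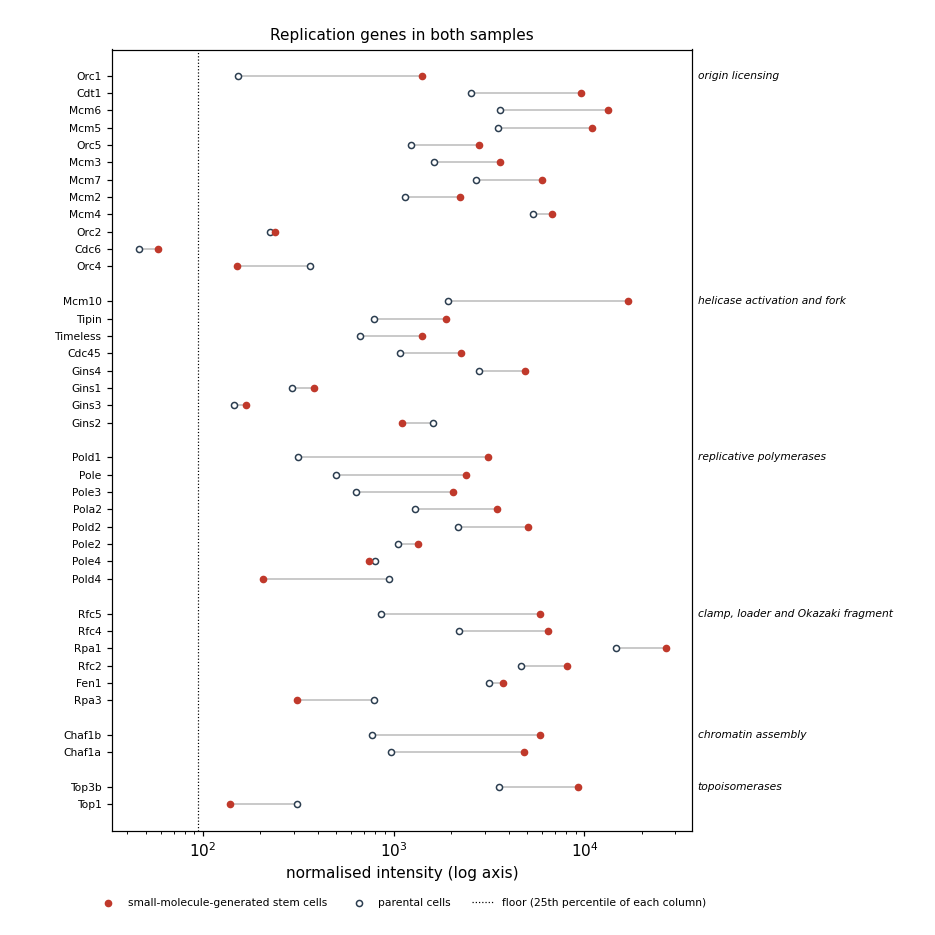
Normalised intensity on a log axis (horizontal) of each of the 38 replication genes, grouped by step and sorted by difference within it, in the small-molecule-generated stem cells (filled red) and the parental cells (open). The dotted line is the floor. Red points lie to the right for most genes, with Pold1, Orc1 and Mcm10 furthest apart, and to the left for 6, by 2-fold or more for Pold4, Rpa3, Orc4 and Top1 and by less for Gins2 and Pole4.

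Mismatch repair, which corrects replication errors, held the next largest positive difference by the same measure. Msh6, a MutS subunit that recognises base mismatches, averaged 7020 in the stem cells and 724 in the parental cells, 9.69-fold higher. Both of its probes agreed in size, one at 35555 in the stem cells and 4037 in the parental cells and the other at 1386 in the stem cells and 130.0 in the parental cells, with log2 differences of 3.14 and 3.41. The MutL genes were less far apart. Pms1 was 2.24-fold higher (655 in the stem cells and 292 in the parental cells). Pms2 was at 838 in the stem cells and 527 in the parental cells (1.59-fold). Mlh3 was at 279 in the stem cells and 267 in the parental cells. Exo1, the exonuclease that removes the faulty strand, averaged 529.5 in the stem cells and 281 in the parental cells, 1.88-fold higher, and its brighter probe alone passed 2-fold at a log2 difference of 1.14. Msh5, a MutS homolog of meiosis, was dim. In all, 2 of 5 genes above the floor were higher and none was lower, beside 20.5% and 20.8% of all genes.

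In base excision and single-strand break repair 3 of 8 genes were higher, beside 20.5% of all genes. A PARP gene showed the largest difference of any member in the other direction. Parp3, an ADP-ribosyltransferase of the DNA break response, was at 222 in the stem cells and 9130.3 in the parental cells, 41.1-fold lower. The PARP genes of the same route differed less. Parp1, the main sensor of strand breaks, was at 8766 in the stem cells and 3266 in the parental cells (2.68-fold higher). Parp2 was at 1729.5 in the stem cells and 1096 in the parental cells (1.58-fold). Xrcc1, the scaffold that PARP1 recruits, was at 5812 in the stem cells and 1519.7 in the parental cells, 3.82-fold higher. Apex1, the endonuclease for abasic sites, was at 28038 in the stem cells and 13573 in the parental cells, 2.07-fold higher. Apex2 was at 369.9 in the stem cells and 401 in the parental cells. Of the glycosylases, which remove damaged bases, Ung was at 639 in the stem cells and 377 in the parental cells (1.69-fold) and Neil1 was near the floor in both at 95.3 in the stem cells and 105 in the parental cells.

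Nucleotide excision repair, which cuts out bulky lesions, had 2 of 7 genes (28.6%) higher and none lower. With so few genes this is near the 20.5% higher among all genes, of which 20.8% were lower. Ercc2, a helicase of the TFIIH complex, was at 659.8 in the stem cells and 146 in the parental cells, 4.52-fold higher. Ercc3, the other helicase of TFIIH, was at 1831 in the stem cells and 2246 in the parental cells, 1.23-fold lower. Ercc8, which serves the transcription-coupled branch, was at 814 in the stem cells and 263 in the parental cells (3.10-fold higher). The nuclease genes did not pass 2-fold in either direction. Ercc1 was at 171 in the stem cells and 101 in the parental cells (1.69-fold higher). Its partner Ercc4 was at 146 in the stem cells and under the floor at 75.8 in the parental cells (at least 1.55-fold higher). Ercc5 was at 803 in the stem cells and 1112 in the parental cells (1.39-fold lower). Rad23b, a partner of the damage sensor XPC, was at 2808 in the stem cells and 2058 in the parental cells (1.36-fold higher).

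Homologous recombination contributed the most repair genes higher by 2-fold, 6 of 12, and none was lower by that amount. It also had the most members of any repair route. Of all genes 20.5% were higher and 20.8% lower. The RAD54 genes encode motors that remodel DNA during strand exchange. Rad54b was at 3399 in the stem cells and 554 in the parental cells (6.13-fold). Rad54l was at 3153 in the stem cells and 849.9 in the parental cells (3.71-fold). Rad51c, a subunit of complexes that assist strand exchange, was at 2689 in the stem cells and 577 in the parental cells (4.66-fold). Xrcc3, its direct partner, was at 901.5 in the stem cells and 265 in the parental cells (3.40-fold). Rad51b was at 298 in the stem cells and 194 in the parental cells (1.53-fold). Both motors passed 2-fold, and so did Rad51c and Xrcc3. Blm, the helicase that dissolves recombination intermediates, was at 3269 in the stem cells and 935 in the parental cells (3.49-fold). Wrn, a helicase of the same family, was at 757 in the stem cells and 674 in the parental cells (1.12-fold). Mcm9, a helicase of recombination, was 2.29-fold higher (291 in the stem cells and 127 in the parental cells). Rad50 of the break-sensing MRN complex was at 1029.9 in the stem cells and 1147 in the parental cells, and Rad52 at 429 in the stem cells and 380 in the parental cells. Rad51ap1, an accessory factor of strand exchange, was under the floor at 81.2 in the stem cells and at 145 in the parental cells, at least 1.55-fold lower. Parpbp, an inhibitor of recombination, was at 669 in the stem cells and 489 in the parental cells.

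All 3 members assigned to end joining here had positive differences, as did 54.2% of all genes above the floor. By 2-fold or more 2 of them were higher, beside 20.5% of all genes. Parp3, of the DNA break response, was counted with base excision instead, and further genes of end joining lie outside the naming rule. Xrcc5, which encodes the Ku80 subunit that caps broken ends, was at 7277 in the stem cells and 1060.4 in the parental cells, 6.86-fold higher. Poll, a polymerase that fills gaps at ends, was at 6351 in the stem cells and 1721 in the parental cells (3.69-fold). Polm was at 766 in the stem cells and 513 in the parental cells (1.49-fold). The Fanconi anaemia genes, which repair crosslinks between strands, were split. Of 6 above the floor 2 were higher and 1 was lower, beside 20.5% and 20.8% of all genes. Fancd2, the monoubiquitinated effector, was at 599 in the stem cells and 168 in the parental cells (3.57-fold higher). Fanca, a core complex subunit, was at 687 in the stem cells and 199 in the parental cells (3.46-fold higher). Fancb, another core subunit, was 2.16-fold lower, at 121 in the stem cells and 261 in the parental cells. Fance, Fancf and Fancc all lay within 1.26-fold, and the median of the 6 Fanconi genes above the floor was -0.25.

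Translesion synthesis, which copies past lesions, was read close to the floor. Polymerase eta gene Polh was at 82.0 in the stem cells, under the floor, and 103 in the parental cells, and Rad18, the ligase that modifies PCNA at stalled forks, was at 118 in the stem cells and 139.9 in the parental cells, each of its 2 probes slightly lower. Poli and Poln were dim. No gene of this route passed 2-fold, and the floor limits what could be seen there. The measured checkpoint kinases, Atr, Atm and Chek2, also stayed under 2-fold, as did 5732 of all 9766 genes above the floor. Chek1 was not among the measured members. Atr, the kinase of replication stress, was at 2111 in the stem cells and 1429.6 in the parental cells (1.48-fold higher). Atm, the kinase of double-strand breaks, was at 519 in the stem cells and 702 in the parental cells (1.35-fold lower). Chek2, an effector kinase, was at 157 in the stem cells and 111 in the parental cells. Rad17, the loader of the checkpoint clamp, lay just below the size rule at a log2 difference of 0.9985 (1185 in the stem cells and 593 in the parental cells). Of the clamp subunits themselves, Rad9a was at 171 in the stem cells and 196 in the parental cells, and its paralog Rad9b, known mainly from the testis, was at 354 in the stem cells and under the floor at 35.6 in the parental cells, at least 3.77-fold higher.

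Among the 11 genes with a repair family's name but no set place in these routes none was higher, beside 20.5% of all genes. Of the 6 further PARP genes 3 were lower, beside 20.8% of all genes. Parp12, an interferon-induced mono-ADP-ribosyltransferase, averaged 108 in the stem cells and 627 in the parental cells (5.80-fold lower), with both probes lower at log2 differences of -1.52 and -3.55. Parp4, the PARP of vault particles, was under the floor at 44.9 in the stem cells and at 344 in the parental cells (at least 3.69-fold lower). Parp11 was at least 2.53-fold lower. Rad21, the cohesin subunit that holds sister chromatids together, was at 6168 in the stem cells and 14224 in the parental cells, 2.31-fold lower. Mcm3ap, Rad54l2, Ercc6l2 and Top1mt stayed under 2-fold.

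**Figure D3:**
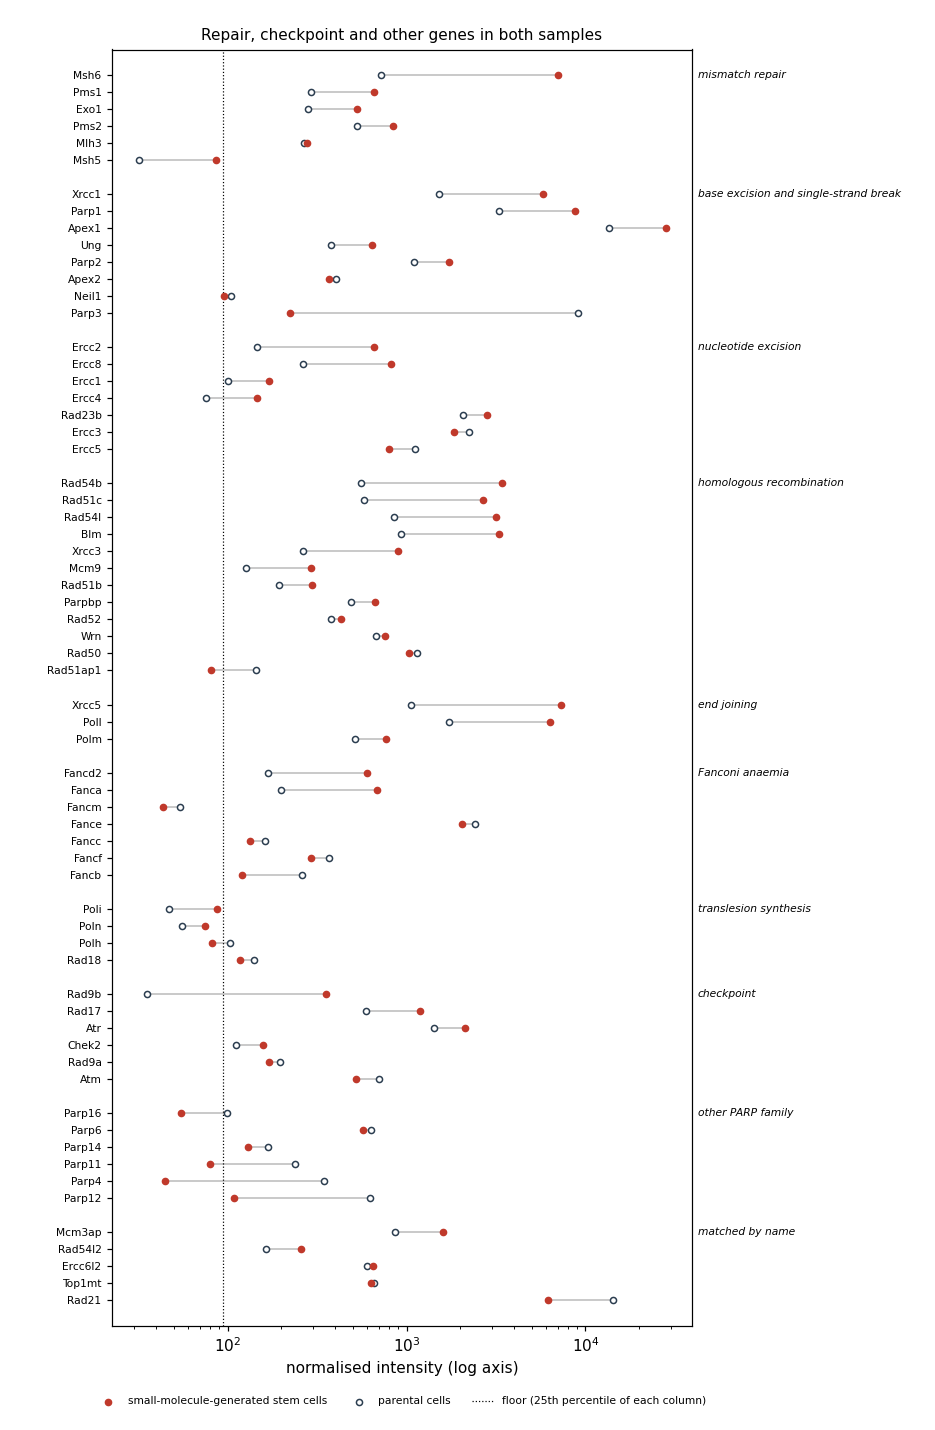
Normalised intensity on a log axis (horizontal) of the 53 repair and checkpoint genes and the 11 genes of neither class, grouped by route and sorted by difference, in the small-molecule-generated stem cells (filled red) and the parental cells (open). The dotted line is the floor. Parp3 is the widest gap with the red point at the left, and Msh6 has the red point far to the right.

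By route, the share of genes past 2-fold in the higher direction ran from 2 of 2 for chromatin assembly to 0 of 2 for translesion synthesis, beside 20.5% of all genes. Among the replication steps it was 7 of 11 for licensing, 5 of 8 for polymerases, 4 of 8 for helicase activation and the fork, 1 of 2 for topoisomerases and 2 of 6 for the clamp, its loader and Okazaki fragments. Among the repair routes it was 2 of 3 for end joining, 6 of 12 for recombination, 2 of 5 for mismatch repair, 3 of 8 for base excision, 2 of 6 for the Fanconi genes, 2 of 7 for nucleotide excision and 1 of 6 (16.7%), under the share of all genes, for checkpoint genes. None of the 6 further PARP genes or the 5 others matched by name was higher. With 2 to 12 genes a route, these shares are descriptions of the genes named and depend on the route each gene was assigned to. The medians of 4 groups lay below that of all genes, namely topoisomerases at 0.10 by a narrow margin, the Fanconi genes, translesion synthesis at -0.19 and the further PARP genes at -0.85.

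**Figure D4:**
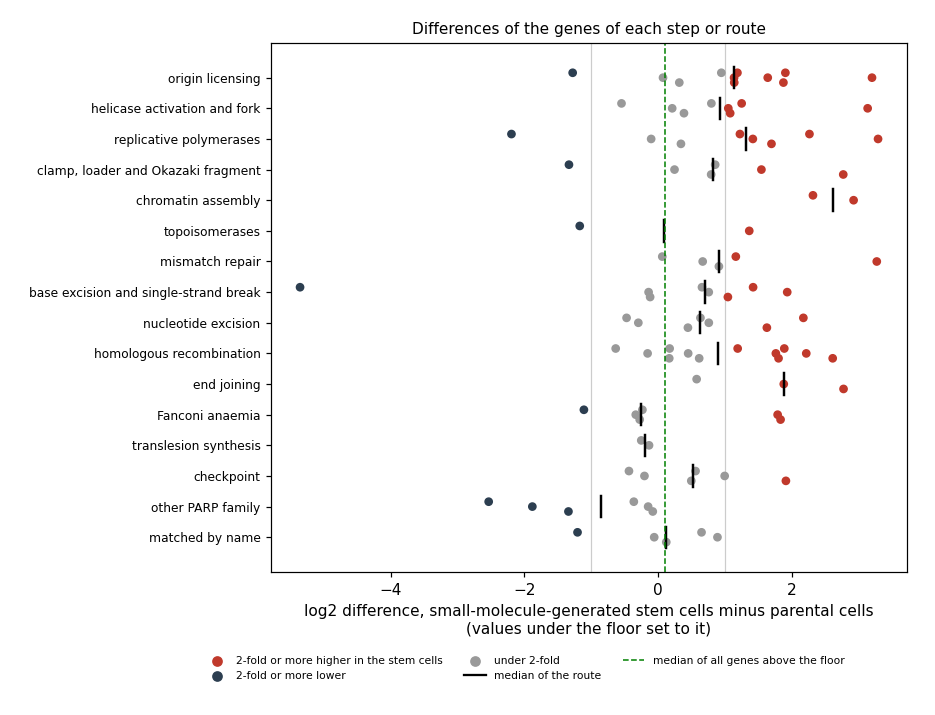
Log2 difference of each gene above the floor between the small-molecule-generated stem cells and the parental cells (horizontal axis), 1 row per step or route. Red points are 2-fold or more higher, dark points 2-fold or more lower, black bars are route medians and the green dashed line is the median of all genes. Points spread over both sides of 0 in most routes, with Parp3 at -5.36 far to the left.

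Genes of the same or adjoining processes that the naming rule does not take were also higher in part. The lists were chosen with earlier results of these data known, so they are no independent support. Of 33 genes listed for S phase and its entry, cyclin E and E2F genes among them, 28 were measured and 27 lay above the floor. Of these 16 (59.3%) were 2-fold or more higher and 1 (3.70%) lower, beside 20.5% and 20.8% of all genes. Their median log2 difference was 1.22, beside 0.10 over all genes. Prim1, the primase catalytic subunit, was at 3103 in the stem cells and 487 in the parental cells (6.37-fold). Cdc25a, the phosphatase that activates CDK2, was 6.06-fold higher, Ccne1, which encodes cyclin E1, was 5.66-fold higher, and Uhrf1, which recruits the maintenance DNA methyltransferase to forks, was 4.64-fold higher. Asf1b, a histone chaperone, was the lower one, at least 4.22-fold. Of 47 further repair genes listed 27 were measured. Among these 11 (40.7%) were higher and 1 (3.70%) lower, beside the same shares of all genes, and the median was 0.56. Eme1, a nuclease subunit, was at 967 in the stem cells and 113 in the parental cells (8.59-fold), the glycosylase genes Mutyh and Nthl1 were 7.80-fold and 4.29-fold higher, and Trp53bp1, a break-response adaptor, was 6.31-fold higher. H2ax, the histone variant phosphorylated at breaks, was 2.28-fold lower, at 2157 in the stem cells and 4907 in the parental cells.

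Of 12 measured genes of G2 and mitosis, none was higher by 2-fold, beside 20.5% of all genes, and the median was -0.13. Lower by 2-fold were 3 (25%), near the 20.8% of all genes. The lower ones were Cenpe, a kinetochore motor (at least 2.55-fold), Mki67, a marker of cycling cells (2.50-fold), and Aurkb, the kinase of the chromosomal passenger complex (2.26-fold). Plk1, the mitotic kinase, was at 2860 in the stem cells and 2673 in the parental cells. The difference between this list and the replication genes was not tested.

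**Figure D5:**
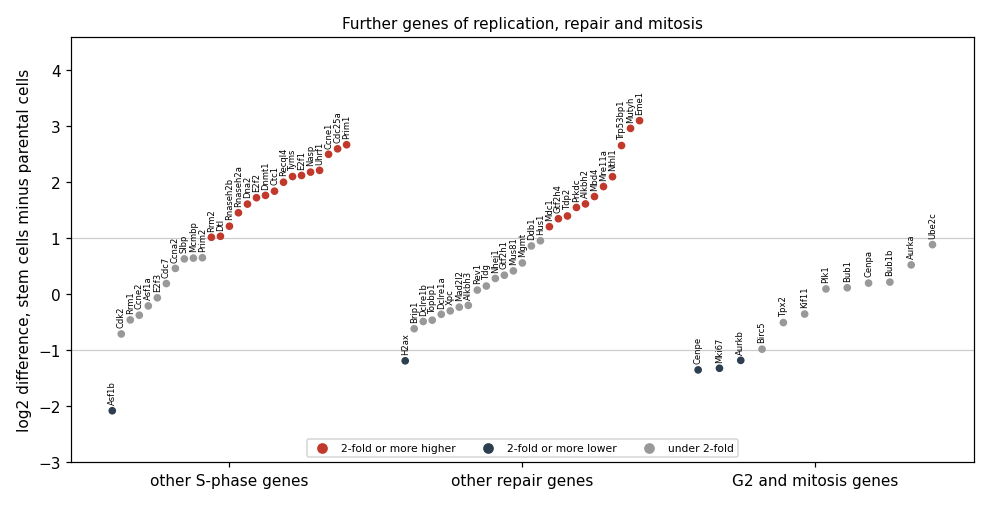
Log2 difference between the small-molecule-generated stem cells and the parental cells (vertical axis) of 27 further S-phase genes, 27 further repair genes and 12 genes of G2 and mitosis above the floor, sorted within each list. Grey lines mark 2-fold. The first list has 16 points above the upper line, the second has 11 and the third has none.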

How the data were processed

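The authors deposited 1 column of probe intensities per sample, on a linear scale and already normalised, as their near-equal quantiles show. The array is the Phalanx Mouse Whole Genome OneArray v2 with Cy5-labelled RNA, per the labels. The sources used here do not give the scanner, the background correction or the method of normalisation. Any difference in total signal between the samples would not show after it. Precision is limited by the number of arrays.

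Probes were named from the platform annotation, with symbols updated through Entrez identifiers (12364 of 12380 named probes), and averaged per gene after log2 in Python 3.11.15 (pandas 2.3.3, numpy 2.4.6). The update changed 0 members' symbols. Genes were counted at 2-fold or more, with values under the 25th percentile of a column set to it. This differs from counting values as measured, which was an alternative. With 1 sample per group no p-value was computed.

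The members and lists were chosen with earlier results of these data known. Any measured member could be named. Genes outside the rule were limited to up to 4 each way per list. Alternatives were other floors, no bound, 4-fold, quantile, lowess (statsmodels 0.14.6, span 0.3) and median centring, the brightest probe, counting probes, an offset of 50, and members of a named step or route alone. The counting was tested on simulated data with noise far under the spread between probes and changes planted in genes above the floor in both samples. That test does not show how 2-fold calls fare at the real spread. RefSeq windows (GRCm38.p6) gave the sequences. Of the genes chosen for a printed promoter, Pold1 and Cdt1 are shown as short stretches because their E2F form lies after the start.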

Additional observations from a re-analysis of the deposited data

How the results depend on the processing

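No paired analysis was possible because each group has 1 column of values. Of the 49 members past 2-fold all kept their sign under quantile normalisation, lowess centring, median centring, the brightest probe, an offset of 50, a lower floor, no floor and values as measured. This outcome was largely fixed in advance. The floors, the bound and the offset cannot reverse a difference past 2-fold, and the brightest probe could change only Msh6 and Parp12. Median centring moved the median of all genes only from 0.10 to 0.02. The kept signs are thus no check on the genes. The count of higher members ran from 34 (lowess centring) to 41 (brightest probe) among the alternatives with the 2-fold rule that count genes. In these 2 settings 17.3% and 21.2% of all genes were higher. When probes were counted, 42 of 104 member probes were higher, beside 20.9% of all probes. With the floor at the median, the lower members numbered 5 in all, 2 in replication and 1 in repair, since more values were set to the higher floor and fewer genes lay above it, and the median over members was 0.92, where 20.9% of all genes were higher and 20.4% lower. At 4-fold, 12 members were higher and 3 lower, beside 6.32% and 9.15% of all genes. Of these, replication had 7 higher and 1 lower and repair 5 higher and 1 lower. Lowess centring put the replication median at 0.96, and it moved the median of all genes to -0.01 from 0.10. An offset of 50 left 1 lower repair gene. Without the 11 genes of neither class, 6 members were lower and the median was 0.83. Genes near the floor, such as those of translesion synthesis, have no measurable lower value.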

Other observations

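The CCAAT box, read as CCAAT or ATTGG, was in the promoter window of 51 of 81 members (63.0%), beside 42.5% of all 9166 measured genes with a window. Among repair genes that were 2-fold or more higher it was in 13 of 15, among those under 2-fold in 14 of 23, and in both of the lower ones. Replication genes had it in 17 of 31. The cell cycle homology region, TTTGAA on either strand, was in 9 of 81 members (11.1%) and 14.5% of measured genes. These are counts of letters chosen for description, and no site was measured.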
